A study of Mus musculus with 3 samples.

Results

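The genes of the mitochondrial respiratory chain and ATP synthase were measured in single cells of 3 mouse pancreatic tumours. Members were taken by symbol: the Ndufa, Ndufb, Ndufc, Ndufs and Ndufv subunits of complex I, Sdha to Sdhd of complex II, the Uqcr genes of complex III, the Cox4 to Cox8 families of complex IV, the Atp5 genes of ATP synthase (complex V), and the mitochondrially encoded mt-Nd, mt-Co, mt-Cytb and mt-Atp genes. This gave 97 of the 31053 genes in the table, 84 of them nuclear and 13 mitochondrial. The tumours grew from tdTomato-positive pancreatic epithelial cells of Msi2-Myc; R26-LSL-tdTomato mice, sorted 5 weeks after tamoxifen and placed in the pancreas of NSG mice, an immunodeficient strain. The series title names the driver as Musashi2-CreER-MycT58A, so a stabilised Myc is switched on in cells that use the Musashi2 promoter. All 3 tumours share this genotype, induction and host, and there is no untreated or wild-type group. EpCAM-positive cells were sorted at end stage and 1 droplet library was made per tumour. Age, sex and the number of donor animals behind each graft are not given in the sources used here.

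The respiratory chain sits in the inner mitochondrial membrane. Complexes I and II take electrons from NADH and succinate, complex III passes them by way of cytochrome c to complex IV, which reduces oxygen, and the proton gradient built on the way drives ATP synthase. Complexes I, III, IV and V are assembled from subunits of both genomes, whereas complex II is wholly nuclear. Exocrine acinar cells, which make digestive enzymes, and duct-type cells are the main epithelial classes of the pancreas, and Myc is a textbook activator of mitochondrial biogenesis genes.

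Cells were grouped inside each tumour by marker genes at 0.3% or more of a cell's UMIs (unique molecular identifiers, each counting 1 captured RNA). The acinar gate used Ctrb1 and Clps, which encode a digestive protease and the lipase cofactor. The ductal gate used Tff1 and Lgals4, a mucosal trefoil peptide and a gut-type galectin. The third gate used Msln, Tm4sf1 and F3 and is called injury-type here. A cell had 1000 or more UMIs, 500 or more genes, at most 20% mitochondrial UMIs and 60% or more of its barcode's UMIs in its own library. Libraries held 11502184, 9737397 and 16521484 UMIs and gave 1431, 253 and 2804 cells. The home-library rule was needed because the libraries share barcodes: all 1877, 641 and 3494 barcodes of 1000 or more UMIs had 10 or more UMIs in another library, and the rule removed 122, 258 and 28 of them. The acinar gate held 458, 47 and 2028 cells of tumours 1, 2 and 3 and the ductal gate 389, 91 and 198. The injury-type gate held 12, 1 and 14, several gates at once 69, 18 and 110, and no gate 503, 96 and 454.

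The gates were checked against markers that did not define them. In acinar-gated cells the 10 acinar check genes (such as Cpa1, Prss2 and Ptf1a) summed to 7763, 5905 and 9753 CPM (UMIs of a gene scaled to a common total for each sum), against 293, 425 and 301 in ductal-gated cells. The 10 ductal check genes (such as Krt19, Tff2 and Sox9) summed to 9122, 7582 and 11641 CPM in ductal-gated and 2142, 2284 and 2679 CPM in acinar-gated cells. Fibroblast, endothelial, myeloid, lymphoid, erythroid, tuft and endocrine lists each summed to between 0 and 14.9 CPM in both gates, and squamous keratins reached 202 CPM in the acinar gate of tumour 3. The 5 mesothelial genes, which include Krt19 and Msln, summed to 928, 1074 and 1033 CPM in acinar-gated and 3767, 3347 and 3818 CPM in ductal-gated cells. A second property split the acinar gate. The genes Gm42418, AY036118 and Gm26917, annotated at ribosomal RNA repeats, made up more than 5% of UMIs in 40.2%, 12.8% and 72.4% of acinar-gated cells of tumours 1, 2 and 3, but in 9.77%, 13.2% and 2.53% of ductal-gated cells. Comparisons are therefore given for all gated cells and for cells at or below 5%, called rRNA-poor.

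Of the 84 nuclear members, 79 had UMIs in kept cells. The other 5 had none: Cox4i2, known as a lung isoform, Cox8b of heart and muscle, the testis genes Cox7b2 and Cox8c, and 1 of the 2 identifiers listed as Atp5o. A count of 0 allows up to 0.95, 5.49 and 0.395 CPM in the kept cells of tumours 1, 2 and 3. This limit of 3 UMIs is 3.17, 31.6 and 0.645 CPM in acinar-gated cells. In ductal-gated cells it is 3.49, 22.4 and 4.43 CPM. Low CPM values of tumour 2 therefore rest on few UMIs. The muscle and testis isoforms Cox6a2 and Cox6b2 had at most 1 and 17 UMIs in any tumour. Cox7a1, the heart and muscle isoform of Cox7a2, had 5, 0 and 37 UMIs in acinar-gated and 1, 0 and 1 in ductal-gated cells. Its ductal counts lie under the 3-UMI limit, so no fold is given. Ndufa4l2, a hypoxia-induced relative of Ndufa4, had 26, 5 and 78 UMIs, of which 18, 4 and 36 lay in cells of no gate. The cells thus held RNA mainly of the widely expressed isoforms: 74 of 84 nuclear members and all 13 mitochondrial ones passed the filter on low counts.

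Ductal-gated cells had a higher share of UMIs from nuclear respiratory chain genes than acinar-gated cells of the same tumour. Nuclear members made up 2.32%, 2.34% and 2.31% of UMIs in the acinar gate of tumours 1, 2 and 3, a mean of 2.33% ± 0.015 (SD, n = 3 tumours). In the ductal gate they made up 3.04%, 2.94% and 3.08%, a mean of 3.02% ± 0.069. Every ductal value lay above every acinar value. The shallowest sums were those of tumour 2, with exact Poisson 95% intervals of 2.25% to 2.44% in acinar and 2.85% to 3.04% in ductal cells. These cover counting error only. Mitochondrially encoded members made up 3.74%, 3.17% and 3.98% of acinar and 5.36%, 4.86% and 8.63% of ductal UMIs. These did not overlap either, but tumour 3 lay far above the other ductal values, so the ductal mean was 6.29% ± 2.05 against 3.63% ± 0.415. In tumour 2 the mitochondrial direction turned under 2 settings: acinar cells had 5.56% against 4.90% in ductal cells with gates at 0.2%, and 7.55% against 6.83% with no home-library rule.

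**Figure D1:**
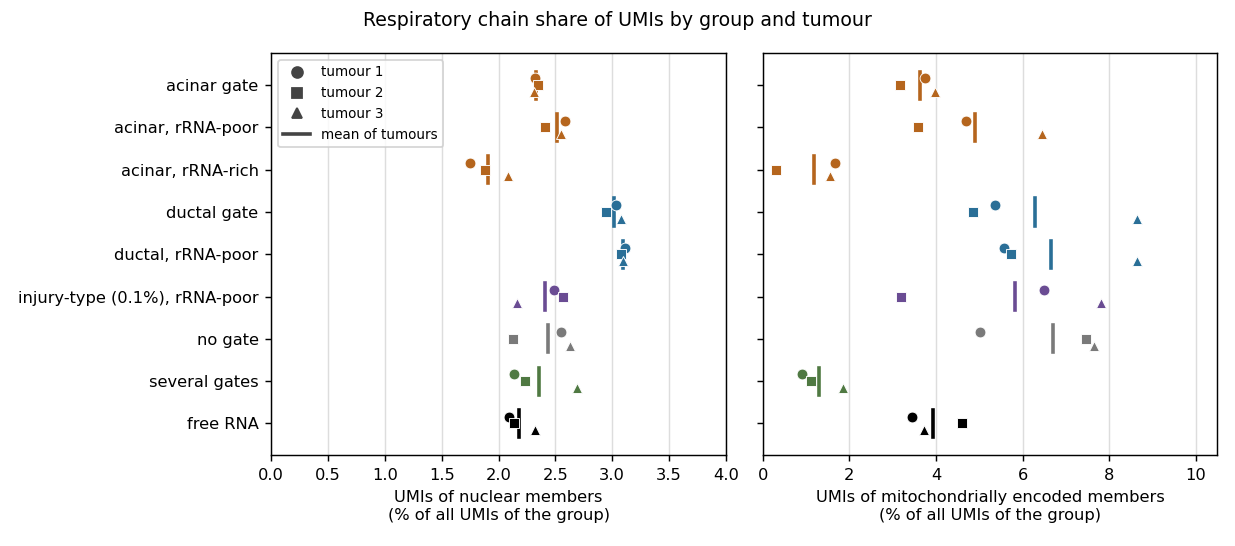
Share of UMIs from nuclear (left) and mitochondrially encoded (right) respiratory chain members, in percent of all UMIs of each group, with 1 point per tumour and a line at the mean of the tumours. The nuclear shares of the ductal gate, 2.94% to 3.08%, lie above those of the acinar gate, 2.31% to 2.34%, and rRNA-rich acinar-gated barcodes have the lowest mitochondrial shares beside cells of several gates.

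Part of that gap moved with the ribosomal RNA genes. In rRNA-poor cells the nuclear share was 2.58%, 2.41% and 2.55% in the acinar and 3.11%, 3.08% and 3.099% in the ductal gate, still without overlap. Taken over UMIs that are neither mitochondrial nor from the ribosomal RNA genes, the nuclear share in all gated cells was 2.71% ± 0.15 in acinar and 3.35% ± 0.064 in ductal cells. The mitochondrial share of rRNA-poor cells was 4.68%, 3.59% and 6.45% in the acinar and 5.58%, 5.74% and 8.65% in the ductal gate: it was higher in ductal cells of each tumour, but the ranges of the groups overlapped. Barcodes of 10 to 100 UMIs, taken here as free RNA, had a nuclear share of 2.10%, 2.13% and 2.32% and a mitochondrial share of 3.44%, 4.59% and 3.73%. Because the libraries share barcodes, some of these may be cells of another library. In each library the nuclear share of free RNA was below that of the ductal gate. Against the acinar gate it was lower in tumours 1 and 2 and about equal in tumour 3 (2.32% against 2.31%). Outside the mitochondrial and ribosomal RNA genes it was 2.66%, 2.59% and 2.74%, near the acinar values of 2.75%, 2.54% and 2.84%. In tumour 2 the mitochondrial share of free RNA lay above the acinar value of 3.17% and near the ductal value of 4.86%.

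Across single genes, the ductal gate was compared with the acinar gate on UMIs summed per gate and tumour, with the tumour as a block (edgeR's quasi-likelihood test, Benjamini-Hochberg adjusted p under 0.05 over 6890 genes). Of 74 nuclear members tested, 32 were higher in ductal cells and 0 lower (0 also at an unadjusted p under 0.05, and 0 by DESeq2), with a median log2 difference of 0.31 where the median of all genes was -0.00. Over all genes, 18.0% were called higher and 15.7% lower. Differences were positive in 64 of the 74. By CPM of all UMIs, 55 were higher and 1 lower in all 3 tumours. In rRNA-poor cells these counts were 47 and 7. The share of all genes that lay the same way in all 3 tumours was not counted. Of the 13 mitochondrial members, 9 were higher and 0 lower (0 lower also at an unadjusted p under 0.05 and by DESeq2). In rRNA-poor cells 34 nuclear members were higher, 30 of them shared with the 32, and 5 mitochondrial ones, all among the 9, against 18.3% of all genes higher and 18.1% lower.

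The fit scales each sum to its typical gene (TMM), so its differences are relative to that gene and can differ from the ratio of the CPM values, which count all UMIs. The size of the nuclear difference moved less than the number of calls. Without the tumour block 6 of the 74 were called higher in place of 32. DESeq2, with the block, also called 6, with a median of 0.37, and called 8.51% of all genes higher. Leaving out tumour 1 left 6 calls and a median of 0.31, and leaving out tumour 3 left 13 calls and a median of 0.43. Genes of DNA replication and mitosis moved with the comparison: the S phase and G2/M lists summed to 4504, 6221 and 3960 CPM in acinar-gated and 2837, 2154 and 2160 CPM in ductal-gated cells. With cells at 0.3% or more of their UMIs from those lists left out, the acinar cells of tumour 2 fell to 6 and dropped from the fit, 6 nuclear members were higher with a median of 0.16, and 10 mitochondrial ones were higher. Without the home-library rule 36 nuclear members were higher but 0 mitochondrial ones. The tumours are separate grafts, but the p-values rest on 3 of them, and the cells of a gate share their tumour and library.

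**Figure D2:**
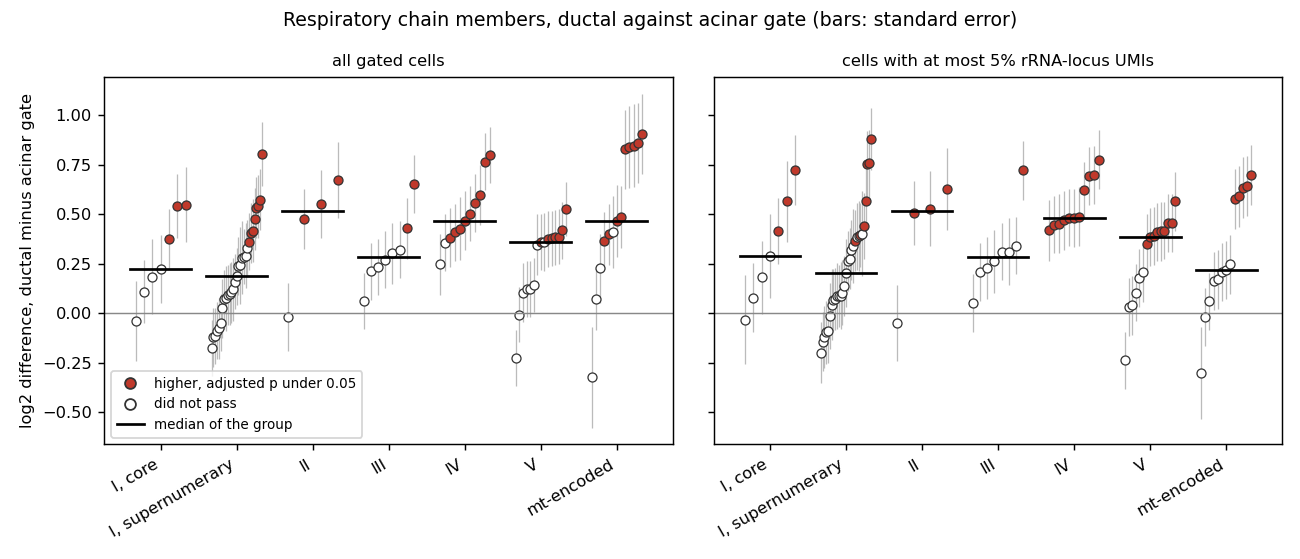
Log2 difference, ductal minus acinar gate, of each tested member, by complex, with its standard error, in all gated cells (left) and in rRNA-poor cells (right). Filled points passed an adjusted p of 0.05; all 11 Cox-named complex IV members lie above 0 in both panels, whereas Sdhb, Atp5g1 and mt-Nd6 lie below it.

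Of the 11 tested nuclear members of the Cox4 to Cox8 families of complex IV, the oxygen-reducing terminal complex, 9 were higher in ductal cells, and all 11 in rRNA-poor cells. The 11 log2 differences ran from 0.25 to 0.80. Ndufa4, now counted with complex IV but listed here with complex I by its symbol, is not among them and had a log2 difference of -0.11. Cox6a1, a small regulatory subunit at chr5:115345642-115348981, stood at 290.5, 199.98 and 253 CPM in acinar and 455, 507 and 499 CPM in ductal cells of tumours 1, 2 and 3. Every ductal value lay above every acinar one, with a log2 difference of 0.80 (SE 0.14, edgeR adjusted p = 2.22e-05). Cox5a, at chr9:57521274-57532426, stood at 431, 389 and 464 CPM in acinar and at 768, 574 and 895 CPM in ductal cells. It too did not overlap, with a log2 difference of 0.77 (SE 0.14, adjusted p = 4.25e-05). These were the 2 members called under all 17 other settings and left-out tumours, Cox6a1 at 0.66 to 0.99 and Cox5a at 0.69 to 0.86. Cox4i1, the regulatory subunit of most tissues, stood at 628, 779 and 686 CPM in acinar and 905, 909 and 945 CPM in ductal cells, a log2 difference of 0.38 (adjusted p = 0.0409). Cox7c stood at 1072, 1095 and 1035 against 1419, 1484 and 1502 CPM, again apart in all tumours. Of the paralogs, Cox7a2 was higher by 0.41 on the log2 scale (adjusted p = 0.0243). Cox7a2l, a supercomplex assembly factor related to it, had a log2 difference of 0.25 in all cells (adjusted p = 0.225) and 0.42 in rRNA-poor cells (adjusted p = 0.0197).

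Complex II, the link to the TCA cycle, split. Sdhc, a membrane anchor, stood at 70.8, 63.2 and 55.7 CPM in acinar and 93.1, 142 and 112 CPM in ductal cells. The groups did not overlap, and the log2 difference was 0.67 (SE 0.19, adjusted p = 0.00598). The acinar value of tumour 2 rests on few UMIs (3-UMI limit 31.6 CPM). Sdha, the flavoprotein that oxidises succinate, stood at 79.2, 137 and 85.6 against 133, 127 and 142 CPM. Sdhd, the other anchor, stood at 153, 179 and 165 against 212, 149 and 289 CPM. Sdha and Sdhd were called higher, by 0.55 and 0.48 on the log2 scale (adjusted p = 0.0115 and 0.0119), but both were lower in the ductal cells of tumour 2, the shallowest pair of sums. Sdhb, the iron-sulfur subunit, stood at 99.3, 189 and 91.8 against 111, 157 and 97.5 CPM and overlapped widely, with a log2 difference of -0.02 (SE 0.17, adjusted p = 0.949).

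Complex I passes electrons from NADH, and its 7 core nuclear subunits were tested apart from the 29 supernumerary ones that surround the core. Of the core, 3 were higher in ductal cells and 0 lower, with a median of 0.22. Ndufs8, an iron-sulfur subunit of the core, stood at 69.7, 42.1 and 73.3 CPM in acinar and 127, 89.5 and 100.4 CPM in ductal cells. The groups did not overlap, but the acinar value of tumour 2 lies near the 3-UMI limit of 31.6 CPM. The log2 difference of Ndufs8 was 0.55 (adjusted p = 0.0222). Ndufv2, of the NADH-oxidising arm, was higher by 0.38 (adjusted p = 0.0478). Of the supernumerary subunits 8 of 29 were higher and 0 lower, with a median of 0.19. Ndufa7 stood at 182, 84.2 and 183 CPM in acinar and 316, 395 and 309 CPM in ductal cells, without overlap. Its acinar value in tumour 2 rests on few UMIs (3-UMI limit 31.6 CPM). Its log2 difference was 0.80 (SE 0.16, adjusted p = 0.00012), with Cox6a1 the largest of the nuclear members. Ndufa4 stood at 485, 442 and 599 against 468, 395 and 607 CPM, with no call (log2 -0.11, adjusted p = 0.582). Ndufa5 had the lowest difference of the group, -0.18 (adjusted p = 0.358).

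In complex III 2 of 8 members passed. Uqcrh, the hinge protein at the cytochrome c docking site (chr4:116066965-116075071), stood at 402, 368 and 475 CPM in acinar and 692, 723 and 701 CPM in ductal cells. The groups were far apart, with a log2 difference of 0.65 (SE 0.15, adjusted p = 0.000576). Uqcrc1, a core protein, was higher by 0.43 (adjusted p = 0.0287) and was not called in rRNA-poor cells (0.31, adjusted p = 0.14).

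In ATP synthase 7 of 15 members were higher in ductal cells. Atp5d, the delta subunit of the central stalk, stood at 316, 295 and 320.5 CPM in acinar and 499, 455 and 471 CPM in ductal cells, again apart in every tumour (log2 0.53, SE 0.14, adjusted p = 0.00256). Atp5a1, the alpha subunit, was higher by 0.42 (adjusted p = 0.0219). Atp5b, the catalytic beta subunit, stood at 799.6, 863 and 702 against 925, 686 and 913 CPM, with no call (log2 0.10, adjusted p = 0.634). The 3 genes Atp5g1, Atp5g2 and Atp5g3 encode the same mature c subunit of the membrane ring and did not move alike. Atp5g3 stood at 463, 547 and 442 CPM in acinar and 614, 634 and 666 CPM in ductal cells and was called higher (log2 0.38, adjusted p = 0.0299). Atp5g1 stood at 638, 842 and 583 against 620.0, 574 and 545 CPM, with a log2 difference of -0.23 (SE 0.14, adjusted p = 0.228). Atp5g2 had a log2 difference of 0.12 (SE 0.14, adjusted p = 0.545). The difference between the paralogs was not tested.

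**Figure D3:**
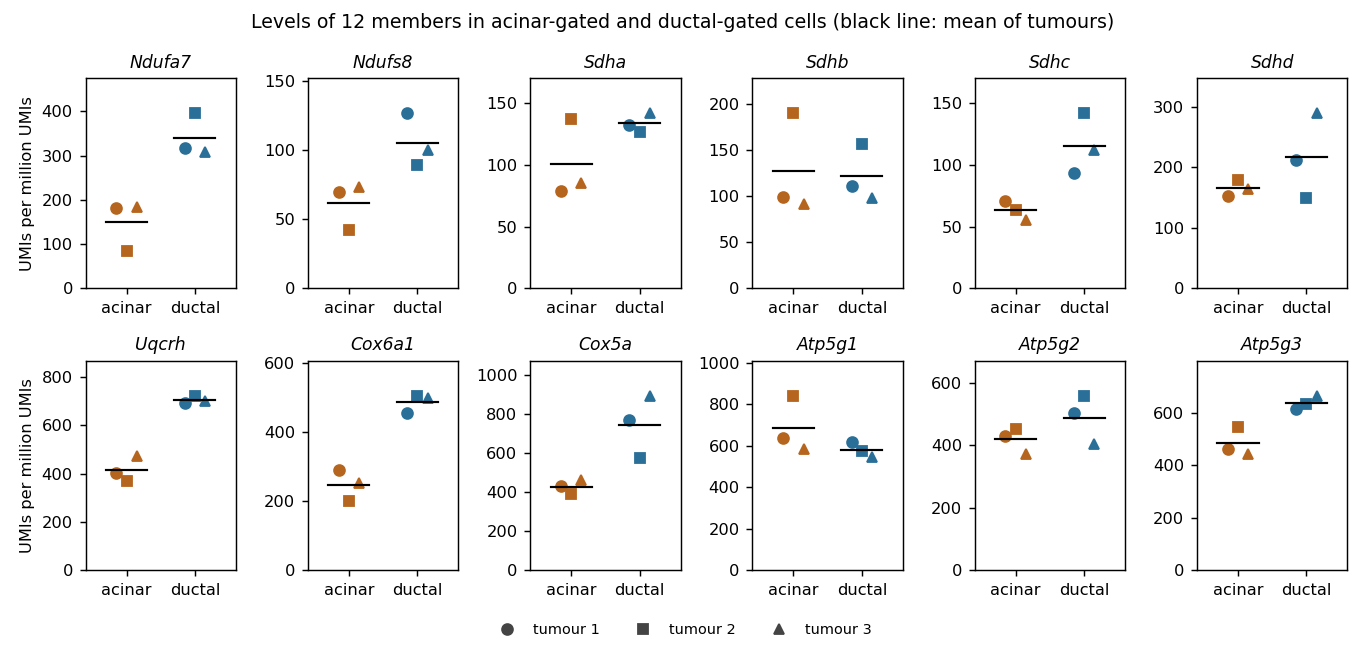
CPM of 12 nuclear members in acinar-gated and ductal-gated cells, 1 point per tumour, with a line at the mean of the tumours and each axis starting at 0. Ndufa7, Ndufs8, Sdhc, Uqcrh, Cox6a1, Cox5a and Atp5g3 separate the gates in all 3 tumours; Sdhb, Atp5g1 and Atp5g2 do not.

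The mitochondrially encoded members fell into 2 ranges. The complex IV genes mt-Co1, mt-Co2 and mt-Co3, the complex III gene mt-Cytb and the ATP synthase gene mt-Atp6 were higher in ductal cells by 0.83 to 0.90 on the log2 scale (adjusted p of 0.000487 to 0.00138). mt-Co1 stood at 6193, 4884 and 6012 CPM in acinar and 9137, 8484 and 13841 CPM in ductal cells, and mt-Co3 at 4792, 3821 and 5352 against 7374, 6881 and 13059 CPM. The ductal cells of tumour 3 were the highest each time, and the gates did not overlap. Those 5 genes were also the 5 called in rRNA-poor cells, at 0.58 to 0.70. The complex I genes had smaller values: 0.49 for mt-Nd3, 0.46 for mt-Nd4 and 0.37 for mt-Nd4l, which were called, and 0.41 for mt-Nd1, 0.23 for mt-Nd2, 0.07 for mt-Nd5 and -0.32 for mt-Nd6, which were not. mt-Nd6, the light-strand gene, stood at 83.4, 52.6 and 55.3 CPM in acinar and 34.9, 22.4 and 84.2 CPM in ductal cells. The ductal value of tumour 2 is at the 3-UMI limit. Of the overlapping members, mt-Nd5 (M:11742-13565) and mt-Nd6 (M:13552-14070) are the pair on opposite strands. The genes mt-Atp8 and mt-Nd4l overlap mt-Atp6 and mt-Nd4, so the small genes are less certain. mt-Atp8 was called at 0.40. The ceiling of 20% mitochondrial UMIs cuts the upper tail: with no ceiling the mean shares were 4.66% in acinar and 8.75% in ductal cells.

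The promoters of 4 called members are shown because they hold motifs of factors known to act on nuclear respiratory genes (NRF1 and the ETS factor GABP) or, for the E box, of Myc. Each is the 250 bases before the RefSeq transcript start (GRCm38.p6), 5′ to 3′ on the gene's strand, with motif matches in capitals. The motifs searched on both strands were the NRF1 palindrome, spelled out in capitals in the Sdha sequence with its middle base free, CCGGAAG (ETS/GABP), AAGATGGCG (YY1) and CACGTG (E box); none overlaps another in these 4. The Ndufa7 promoter (chr17:33824322-33824571, plus strand) holds 1 E box, that of Sdha (chr13:74350241-74350490, minus strand) 3 NRF1 matches, that of Uqcrh (chr4:116075071-116075320, minus strand) 1 ETS/GABP match, and that of Cox6a1 (chr5:115348959-115349208, minus strand) 2 NRF1 matches and 1 ETS/GABP match.
Ndufa7: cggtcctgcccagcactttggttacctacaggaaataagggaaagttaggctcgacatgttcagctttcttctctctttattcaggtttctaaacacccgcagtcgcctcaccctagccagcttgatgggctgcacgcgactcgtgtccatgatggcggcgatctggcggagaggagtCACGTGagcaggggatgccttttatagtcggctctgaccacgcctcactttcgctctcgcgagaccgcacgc
Sdha: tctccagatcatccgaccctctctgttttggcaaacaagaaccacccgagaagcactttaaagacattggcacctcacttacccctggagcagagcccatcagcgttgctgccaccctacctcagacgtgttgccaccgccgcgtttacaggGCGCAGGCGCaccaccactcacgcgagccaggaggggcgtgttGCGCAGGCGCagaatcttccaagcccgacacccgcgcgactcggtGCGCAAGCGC
Uqcrh: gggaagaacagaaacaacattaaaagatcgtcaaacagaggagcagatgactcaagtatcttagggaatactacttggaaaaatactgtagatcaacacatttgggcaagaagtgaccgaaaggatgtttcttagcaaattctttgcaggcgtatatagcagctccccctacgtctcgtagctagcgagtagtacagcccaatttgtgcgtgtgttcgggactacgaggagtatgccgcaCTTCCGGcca
Cox6a1: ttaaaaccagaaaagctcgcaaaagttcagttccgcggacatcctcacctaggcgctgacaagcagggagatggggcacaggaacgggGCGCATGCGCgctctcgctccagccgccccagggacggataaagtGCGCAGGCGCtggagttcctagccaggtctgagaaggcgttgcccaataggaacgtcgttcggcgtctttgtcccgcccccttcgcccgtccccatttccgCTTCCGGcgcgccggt
RefSeq promoters were found for 67 of the 84 nuclear members. NRF1 matches were in 13 of them (19.4%) and in 4.23% of all 27025 genes with promoters of the same length. Those genes were not limited to the ones detected or tested in these cells. Whether the members differ from other expressed genes was not tested. A gene counted as matching if any of its listed starts did. ETS/GABP matches were in 12 (17.9%, against 7.83%), YY1 in 1 (1.49%, against 0.710%) and E boxes in 5 (7.46%, against 6.86%). Among matched members, NRF1 matches were in 5 of the 27 called higher in ductal cells and in 8 of the 35 tested and not called, so motif content as counted here did not separate the called members from the others. The promoter at the first listed start of Atp5d had no match.

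Lists of genes that build or feed the chain were counted in the same fit, and no test compared them with the subunits. Of 38 assembly factors tested, 3 were higher in ductal cells and 2 lower, with a median of -0.04, where 18.0% of all genes were higher and 15.7% lower. Cox20 and Cox14, which help to build complex IV, were higher by 0.89 and 0.63 (adjusted p = 0.0011 and 0.00389), while the complex I factors Ndufaf6 and Ndufaf2 fell by 0.97 and 0.56. Of 17 genes of mitochondrial DNA expression, 5 were lower and 0 higher (median -0.37). Tfam, the packaging and transcription factor of mitochondrial DNA, stood at 92.9, 94.7 and 66.5 CPM in acinar and 65.1, 74.5 and 39.9 CPM in ductal cells, lower in each tumour and by -0.68 in the fit (SE 0.21, adjusted p = 0.0107). Ssbp1, its single-strand binding protein, and Trmt10c, of mitochondrial RNA processing, were lower by the fit as well (-0.62 and -0.99). Polrmt, the mitochondrial RNA polymerase, had 31, 5 and 76 UMIs in all kept cells, too few for the filter.

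Among 6 coactivators and factors tested, Esrra, a nuclear receptor of oxidative metabolism genes, was higher (log2 0.81, adjusted p = 0.0168). It stood at 25.3, 63.2 and 17.4 CPM in acinar against 46.5, 74.5 and 36.9 CPM in ductal cells. The tumour 2 values of Esrra rest on few UMIs. Nrf1 and Gabpa had differences of -0.60 and -0.52 and Pprc1 and Ppargc1b of -0.43 and 0.29, none called. Ppargc1a had 0 UMIs in the kept cells of every tumour. Of 21 genes of pyruvate oxidation, the TCA cycle and electron carriers, Suclg2 (0.57) and Idh3b (0.48) were higher and 0 lower, with a median of 0.11; Cs, Cycs and Cyc1 had 0.37, -0.03 and 0.09 and were not called. The mitochondrial ribosome had 2 of 77 higher and 17 lower (median -0.22), and import translocases 1 of 22 higher and 8 lower, with Tomm20, the outer-membrane receptor, at 811, 947 and 713 CPM in acinar and 601, 432 and 465 CPM in ductal cells (log2 -0.70, adjusted p = 0.000182). Against 15.7% of all genes lower, these 2 lists stood at 17 of 77 and 8 of 22. Glycolysis had 1 of 13 higher (Hk1, 0.92) and 5 lower (Eno1 at -0.69). Of 9 redox defence genes 3 were higher, among them Gpx1, a glutathione peroxidase, by 1.39 and Prdx5 by 1.03. The 1 that was lower by the fit was Gpx4, at -0.46. Cytosolic ribosome genes had 0 of 83 higher and 2 lower. Of the cycle lists, 18 of 25 S phase genes and 18 of 24 G2/M genes were lower in ductal cells.

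The rRNA-rich barcodes of the acinar gate differed from the rRNA-poor ones in the mitochondrial genes. This split was made after the ribosomal share was seen to fall into separate ranges, and tumours 1 and 3 had 20 or more cells on both sides (184 and 1469 rich, 274 and 559 poor). Of the 13 mitochondrial members 11 were lower in rRNA-rich barcodes, with a median of -1.10, against 1.77% of all 7221 genes lower and 4.46% higher. mt-Co1 stood at 7961 and 10105 CPM in rRNA-poor and at 2335 and 1979 CPM in rRNA-rich barcodes of tumours 1 and 3, a log2 difference of -1.41 (SE 0.20, edgeR adjusted p = 1.79e-07). mt-Nd1 was at 4008 and 4688 against 1226 and 997 CPM (log2 -1.36). Only mt-Nd5 (-0.42) and mt-Nd6 (0.05) were not called. With no ceiling on the mitochondrial share, 0 of the 13 were called (median -0.36), and without tumour 3 the calls were 3.

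The nuclear members did not share this. They made up 1.75% and 2.08% of all UMIs in rRNA-rich against 2.58% and 2.55% in rRNA-poor barcodes of tumours 1 and 3, but 2.74% and 2.94% against 2.75% and 2.76% of the UMIs outside the mitochondrial and ribosomal RNA genes. In the fit 2 of 75 were higher, Ndufa1 (0.68) and Cox7a2l (0.69), and 0 lower (0 also at an unadjusted p under 0.05 and by DESeq2). Both calls rest on the scaling to the typical gene: as CPM of all UMIs Cox7a2l stood at 265 and 267 CPM in rRNA-poor and 286 and 281 CPM in rRNA-rich barcodes, and Ndufa1 overlapped. Several values moved with the split: Lars2 stood at 431 and 440.3 CPM in rRNA-poor and 12731 and 15663 CPM in rRNA-rich barcodes, and median genes per cell at 913 and 1043 against 605.5 and 607. The ductal gate genes Tff1 and Lgals4 stood at 1116 and 316 CPM in rRNA-rich barcodes of tumour 1, against 114 and 83.2 CPM in rRNA-poor ones. Free RNA held 17.9%, 12.98% and 11.5% of its UMIs at the ribosomal RNA genes. The part of these values in the difference was not tested.

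Over single cells, each thinned to 1000 UMIs, the nuclear members varied little and the mitochondrial ones much. In rRNA-poor ductal cells the median cell had 33, 30 and 36 nuclear member UMIs in tumours 1, 2 and 3, and the SD over cells was 7.26, 6.87 and 8.81 where sampling alone gives 5.74, 5.50 and 5.94. In rRNA-poor acinar cells the medians were 27, 26 and 30. No kept cell of any group had 0 nuclear member UMIs. Mitochondrial members had medians of 35, 39 and 44 UMIs in rRNA-poor ductal and 23, 21 and 28 in rRNA-poor acinar cells, and of 4 and 3 in rRNA-rich acinar barcodes of tumours 1 and 3. Under 10 mitochondrial UMIs were found in 80.4% and 79.2% of those rRNA-rich barcodes, against 8.76% and 5.01% of the rRNA-poor ones.

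**Figure D4:**
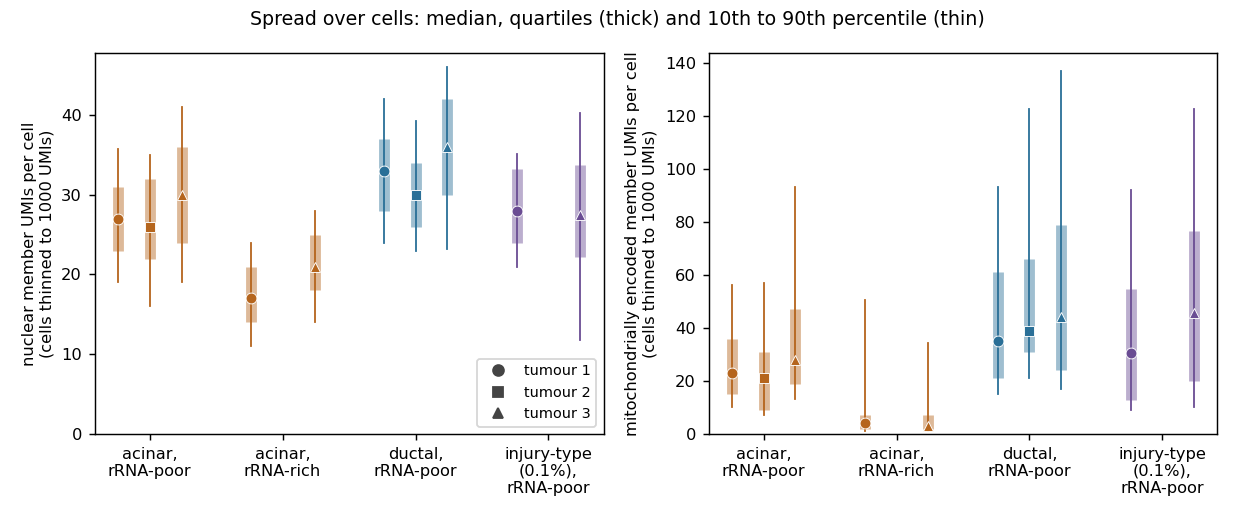
Nuclear (left) and mitochondrially encoded (right) member UMIs per cell after thinning each cell to 1000 UMIs, for groups of 20 or more cells; the point is the median of a tumour, the thick bar the quartiles and the thin line the 10th to 90th percentile. The rRNA-rich acinar barcodes have medians of 4 and 3 mitochondrial UMIs, and the ductal cells the highest nuclear medians.

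In the rRNA-poor cells of a gate, high mitochondrial shares went with low nuclear ones. Spearman's rho between the 2 counts was -0.35, -0.46 and -0.47 over the 351, 79 and 193 rRNA-poor ductal cells of tumours 1, 2 and 3. It was -0.25, -0.24 and -0.27 over the rRNA-poor acinar cells. Groups that include rRNA-rich barcodes varied. Over the whole acinar gate rho was 0.27, -0.03 and 0.14, and over the whole ductal gate -0.13, -0.16 and -0.47. Over cells of several gates it was 0.21, 0.15 and 0.16, and over cells of no gate 0.18, -0.12 and -0.15. Over all kept cells it was 0.26, 0.02 and 0.22. These are descriptions over cells that share a library, and both counts come out of the same 1000 UMIs, so a rise of either lowers the other.

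The injury-type gate could not be compared as planned, since no tumour had 20 cells at 0.3%. With that gate set at 0.1% and rRNA-poor cells only, tumours 1 and 3 had 40 and 70 cells. Both settings were chosen after the counts were seen. Tumour 2 had 5 injury-type cells and gave no injury-type sum. The fit held 11 sums, among them rRNA-poor acinar and ductal sums of tumour 2 and rRNA-rich sums. The lower share only added cells of no gate, so acinar-gated and ductal-gated cells may also reach 0.1%. It is few UMIs at the medians of 1729.5 and 1911 UMIs per injury-type cell. The 8 injury check genes (such as Ankrd1, Plat and Ly6a) summed to 16969 and 15310.1 CPM in the injury-type cells, but also to 11235 and 10633 CPM in rRNA-poor ductal cells. The ductal check genes summed to 7836 and 8952 CPM in the injury-type cells. Other values moved with the gate: Malat1, a nuclear RNA, stood at 16838 and 24330 CPM, against 3360.4 and 7918 CPM in rRNA-poor ductal cells, and squamous keratins at 20.1 and 2696 CPM. Their part in the following differences was not tested.

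Nuclear members were lower in these cells than in rRNA-poor ductal cells. They made up 2.49% and 2.16% of UMIs in tumours 1 and 3, against 3.11% and 3.099%. Of 75 tested, 17 were lower and 0 higher (0 also at an unadjusted p under 0.05 and by DESeq2), with a median log2 difference of -0.45. Over all 7221 genes 2.44% were called lower and 4.74% higher, and their median was -0.05. Ndufc1, a small complex I subunit, stood at 345 and 337 CPM in ductal and 141 and 150.0 CPM in injury-type cells, a log2 difference of -1.25 (SE 0.25, edgeR adjusted p = 0.000183). Uqcr10 of complex III stood at 859 and 730.2 against 402 and 337 CPM, a log2 difference of -1.09 (SE 0.21, adjusted p = 0.000109). Both tumours moved the same way. In ATP synthase 7 of 16 were lower: Atp5g1 was at 639 and 550.2 against 322 and 263 CPM (log2 -1.06, adjusted p = 0.000386) and Atp5k, subunit e of its dimer interface, at 636 and 496 against 412 and 204 CPM (log2 -1.06, adjusted p = 0.00065). Each of these sums has 1 replicate per tumour, so 2 in all. Also lower were Ndufb10 (-1.17), Ndufv2 of the core (-0.84), Sdhd (-1.01), Uqcr11 (-0.83), Cox5a (-0.70) and Atp5g3 (-0.88). No mitochondrial member passed (0 higher and 0 lower, 0 and 4 at an unadjusted p under 0.05, and 0 and 0 by DESeq2), with mt-Co1 at 0.23 and mt-Nd4l at -0.66. DESeq2 called 3 nuclear members lower and a fit without the tumour block 4. The fit without tumour 3 called 0 (median -0.27) and that without tumour 1 called 8; in both the 1 injury-type sum left is assumed to vary like the other groups.

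Against rRNA-poor acinar cells the same cells showed a mixed pattern, where 15.9% of all genes were called higher and 12.1% lower. This comparison shares its injury-type sums with the one above. Of 75 nuclear members 1 was higher and 8 lower. Ndufa7 was higher (191 and 193 CPM in acinar, 392.3 and 229 CPM in injury-type cells; log2 0.69, adjusted p = 0.0211). Atp5g1, the c subunit gene that had no call between ductal and acinar cells, was at 756 and 663 against 322 and 263 CPM, a log2 difference of -1.27 (SE 0.22, adjusted p = 3.23e-06). Ndufa5 (-1.07), Ndufc1 (-0.95), Ndufb10 (-0.93), Ndufs6 (-0.72), Sdhb (-0.87), Uqcr10 (-0.76) and Atp5o (-0.71) were the others that were lower. The 4 mitochondrial genes mt-Co1 (0.87), mt-Co2 (0.74), mt-Co3 (0.74) and mt-Atp6 (0.54) were higher, and no mt-Nd gene was called. The call of Ndufa7 and those 4 were lost without tumour 1 (0 higher in each set), and without tumour 3 there were 4 nuclear members higher and 1 lower. DESeq2 called 0 nuclear members higher and 4 lower.

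**Figure D5:**
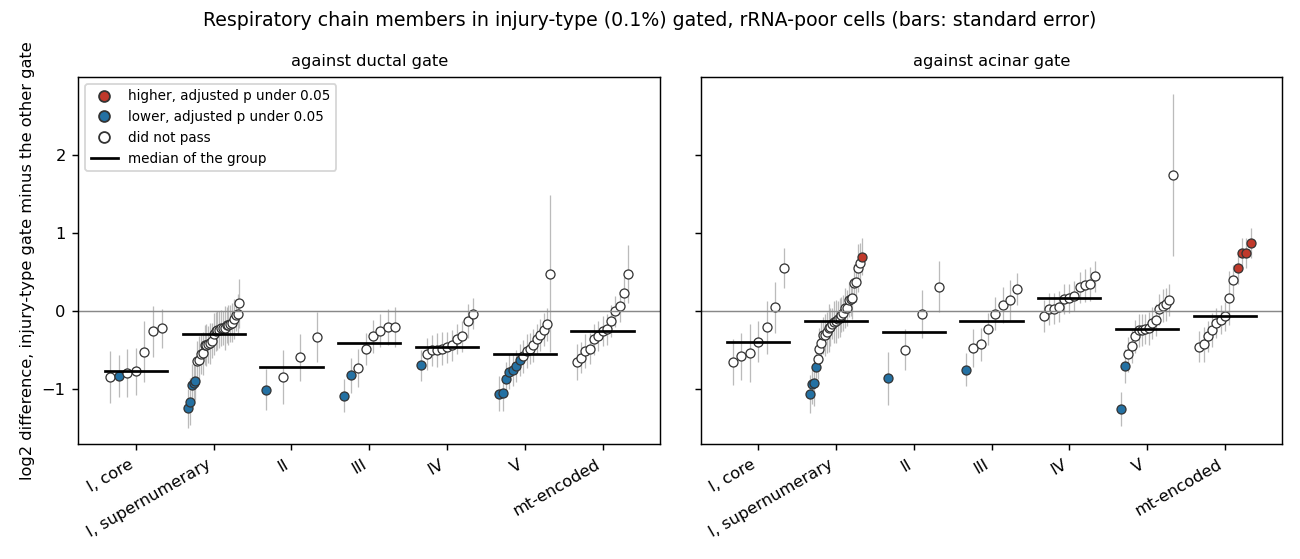
Log2 difference of each tested member in injury-type (0.1%) rRNA-poor cells against ductal-gated (left) and acinar-gated (right) rRNA-poor cells, by complex, with its standard error. Injury-type sums come from tumours 1 and 3, and the fit also held acinar and ductal sums of tumour 2 and rRNA-rich sums. Against ductal cells 17 of 75 nuclear members are lower, where 2.44% of all genes were, and none of the mitochondrial ones passed. Against acinar cells mt-Co1, mt-Co2, mt-Co3 and mt-Atp6 are higher. There 8 of 75 nuclear members (10.7%) are lower, no more than the 12.1% of all genes called lower.

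Cells outside the gates did not lie evenly between them. Cells of no gate had nuclear shares of 2.55%, 2.13% and 2.63% and mitochondrial shares of 5.02%, 7.46% and 7.65%. Cells of several gates had nuclear shares of 2.14%, 2.23% and 2.69% and mitochondrial shares of 0.908%, 1.12% and 1.85%, the latter below both gates in each tumour. In 85.5%, 77.8% and 83.6% of them the ribosomal RNA genes made up more than 5% of UMIs.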

How the data were processed

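Single cells of 3 tumours, 1 library each, were measured by droplet sequencing of RNA 3' ends with UMIs. The deposited files hold UMI counts per gene and barcode, not normalized; Cell Ranger 3.0.2 made them per the file headers, and Cell Ranger 3, mm10 and Seurat 3.1 are named in the submitters' processing notes. The labels name both Version 1 and Version 3 of the kit. The sources used here give no strand setting for the counting, and reads of processed pseudogenes may be lost or added for many nuclear members.

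Cells, gates and the UMI limits are given above; no doublet caller was run, but cells of more than 1 gate were left out. UMIs were summed per gate and tumour where 20 or more cells were present, the 7 gate genes were left out of the counts of calls, and sums were compared with edgeR 4.0.16 (quasi-likelihood, TMM, low-count filter, Benjamini-Hochberg at 0.05 over all genes) in R 4.3.3, with the tumour as a block because both gates come from the same animal. The correlation of same-tumour deviations was 0.035, -0.003 and 0.188. DESeq2 1.42.0 was an alternative, and others covered the filter, block, gates, home-library and mitochondrial limits, cycling cells, cells per sum and each tumour left out. On simulated counts of 6425 genes for the ductal against acinar comparison, 45 of 45 genes changed 4-fold, 20 of 43 changed 2-fold, 4 of 45 changed 1.5-fold and 0 of 48 changed 1.25-fold were called, and 4 of 6244 unchanged ones. The simulation had a common spread for all genes, no tumour effect and few changed genes. The real fit called 18.0% of all genes higher and 15.7% lower, so these rates may not hold for it.

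The injury-type comparisons were planned at 0.3% and could not be fitted; the 0.1% gate, the rRNA split and its comparison were added after seeing the data. Members and lists were chosen with earlier results of these data known. Named genes are all mitochondrial and Sdh members, paralog sets, the most abundant nuclear member of each complex, up to 2 called members per direction and complex in each comparison, listed regulators, and up to 2 called genes per direction and pathway list by p; Cox7a2l, Ndufa5 and others named with a count of few were chosen after their values were seen. Coordinates are from GENCODE vM21 (GRCm38), which matched 97 of 97 identifiers, and promoters from RefSeq GRCm38.p6. Python 3.11.15 with scipy 1.17.1 was used for intervals and correlations. Some results are not reported here.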

Additional observations from a re-analysis of the deposited data

Results flagged for a closer look

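Barcodes of 10 to 100 UMIs, taken here as free RNA, carried the members too and entered no fit. Some of them may be cells of another library, since the libraries share barcodes. Nuclear members made up 2.10%, 2.13% and 2.32% of their UMIs in the libraries of tumours 1, 2 and 3, and mitochondrially encoded members 3.44%, 4.59% and 3.73%. These shares are listed because the barcodes lay under the UMI limit for cells in the same library. The shares are far above the limit that a count of 0 allows. The part of free RNA in the shares of the gated cells was not tested.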

How the results depend on the processing

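Counts of calls depend on tool, filter and tumour more than the direction does. Of the 32 nuclear members higher in ductal than acinar cells, 31 kept their sign in every setting and 2 their call; the 9 mitochondrial ones kept their sign and none its call in every setting. Ndufa1 reversed without cycling cells (-0.044). In that comparison nuclear members called higher were 6 by DESeq2, 15 with no low-count filter, 19 at a gate of 0.2%, 18 with any mitochondrial share, 6 without cycling cells, 21 with 50 or more cells per sum, and 6 to 23 with a tumour left out. Mitochondrial ones were 5 by DESeq2, 2 at a gate of 0.2%, 0 with no home-library filter, 5 with 50 or more cells, 5 in rRNA-poor cells and 5 to 7 with a tumour left out, with 0 to 1 lower. Over all genes, 586 were higher and 373 lower by DESeq2, 670 and 634 without cycling cells, and 663 to 1409 and 509 to 1259 with a tumour left out.

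The tumour block pairs sums of the same animal. With no block, 6 nuclear and 4 mitochondrial members were higher in ductal cells and 627 of all genes lower. For injury-type against acinar cells 0 nuclear members were higher and the mitochondrial median became 0.063, and against ductal cells 4 nuclear members and 89 of all genes were lower. For rRNA-rich barcodes 0 nuclear members were higher, 5 mitochondrial ones lower, and 168 of all genes higher and 10 lower. The block moved no other count of calls by over 1.5 times.

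For injury-type against acinar cells, nuclear members higher were 0 by DESeq2, at a gate of 0.2% and without cycling cells, 2 with any mitochondrial share, 2 with no home-library filter and 0 to 4 with a tumour left out. Nuclear members lower were 4 by DESeq2, 13 at a gate of 0.2%, 13 with no home-library filter and 1 to 13 with a tumour left out. The nuclear median turned to 0.0089 by DESeq2 and ranged from -0.25 to 0.20 with a tumour left out. The mitochondrial median turned to 0.033 without cycling cells and ranged from -0.24 to 0.19; both highest values are without tumour 3. Mitochondrial members higher were 0 without cycling cells and 0 to 5 with a tumour left out, and lower 2 with any mitochondrial share, 4 with no home-library filter and 0 to 3. All genes higher were 752 at a gate of 0.2%, 517 without cycling cells and 346 to 1124, and lower 313 by DESeq2, 356 without cycling cells and 187 to 1173.

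Against ductal cells, nuclear members lower were 3 by DESeq2, 35 with no home-library filter and 0 to 18 with a tumour left out, and 1 was higher with any mitochondrial share and 1 with no home-library filter. Of mitochondrial members 1 was higher at a gate of 0.2%, and 5, 4 and 1 were lower with any mitochondrial share, no home-library filter and without cycling cells, and 0 to 1 with a tumour left out. All genes higher were 138 by DESeq2, 548 with no home-library filter and 76 to 360, and lower 27, 483 and 17 to 237. For rRNA-rich barcodes all genes higher were 99 by DESeq2, 96 without cycling cells and 81 to 378, and lower 17 by DESeq2, 234 with no home-library filter and 13 to 168. Nuclear members higher were 0 by DESeq2 and without cycling cells, 1 with no low-count filter, 4 with no home-library filter and 0 to 1 with a tumour left out. Mitochondrial ones lower were 0 with any mitochondrial share, where mt-Atp8 turned to 0.049, and 3 to 11 with a tumour left out.

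The mean nuclear share of ductal and acinar cells was 3.20% and 2.42% in thinned cells, 3.22% and 2.41% of UMIs that are not mitochondrial, 3.35% and 2.71% of UMIs outside both gene groups, 2.95% and 2.29% at a gate of 0.2%, 3.16% and 2.44% at 0.6%, 3.19% and 2.39% at no more than 10% mitochondrial, 2.88% and 2.27% at any share, 3.19% and 2.43% without the 5% of cells with most UMIs, and 3.096% and 2.51% in rRNA-poor cells. The acinar value was 2.24% with no home-library filter and 2.30% without cycling cells. In tumour 2 the mitochondrial share was higher in acinar cells at a gate of 0.2% and with no home-library filter. The mitochondrial share of ductal cells was 3.999% at no more than 10% and 8.75% at any share. That of acinar cells was 2.33% thinned, 4.53% at a gate of 0.2%, 5.25% with no home-library filter, 2.56% at no more than 10%, 4.66% at any share, 2.34% without the 5% with most UMIs, 2.25% without cycling cells and 4.91% in rRNA-poor cells. The causes were not tested.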
